A study of Brachypodium distachyon with 4 samples.

Results

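A set of 65 loci had next to no reads in leaves of wild-type Brachypodium distachyon, a temperate model grass, and were read in the mutant jmj1-1. The mutant signal was sparse at 32 of them, with 20 to 29 reads over both libraries. Members were chosen by their reads alone, as BRADI loci with at most 2 reads summed over both Bd21-3 libraries and 20 or more summed over both jmj1-1 libraries. Such loci are called silent below, which means only that almost no read was counted there. They are 65 of 34310 BRADI loci in the table, or 0.189%, and a stretch of neighbouring loci on chromosome 3, BRADI_3g27500v3 to BRADI_3g28300v3, where another 2 loci met the same limits, was left out. Because reads in both genotypes made the choice, the difference between the genotypes at these loci is a description and is given without a test.

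The wild type was Bd21-3, an inbred line, and jmj1-1 is labelled as a genotype of that line. Each genotype had 2 libraries, made from leaves of seedlings that had reached leaf stage 4 by day 17 and were collected 10 h into the light period of cycles of 20 h light and 4 h dark, with no treatment named. What kind of allele jmj1-1 is, how many plants a library held and whether both libraries of one genotype had different plants as their source are not stated in the labels, so the spread between libraries may be technical. Depth was 16520046 and 16130508 reads in Bd21-3 and 16089629 and 13825916 reads in jmj1-1, so the mutant libraries were not the deeper ones. No table used here joins the identifiers to gene names, so the JMJ1 transcript and leaf marker genes could not be looked up to check the labels.

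Genes named JMJ encode proteins with a JmjC domain, a fold shared by a family of enzymes that remove methyl groups from histones. Histone methylation marks both active and silent chromatin, and in plants long-lasting silence is a usual state of transposable elements, of many duplicated genes and of genes kept for another tissue or stage. Chromatin was not measured in these samples, and what the 65 loci encode is not annotated in the files, so they are described by identifier, reads and place among the loci.

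In Bd21-3, 35 of the 65 loci had no read at all, 17 had 1 read and 13 had 2 reads over both libraries. Summed over the set, the wild-type libraries held 20 and 23 reads and the mutant libraries 2590 and 2319. Scaled to library size, that is 1.24 and 1.45 CPM (counts scaled to a common library size) in Bd21-3 against 158.8 and 164.2 CPM in jmj1-1. No member had more than 2 reads in any single Bd21-3 library, and none had fewer than 4 reads in a jmj1-1 library. At all 65 loci both mutant libraries lay above both wild-type libraries in reads, as the limits nearly force; among the rows of the table with a read, 12.1% did so. From bulk leaf RNA, a locus read weakly in many cells and one read strongly in a few cells cannot be told apart.

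**Figure D1:**
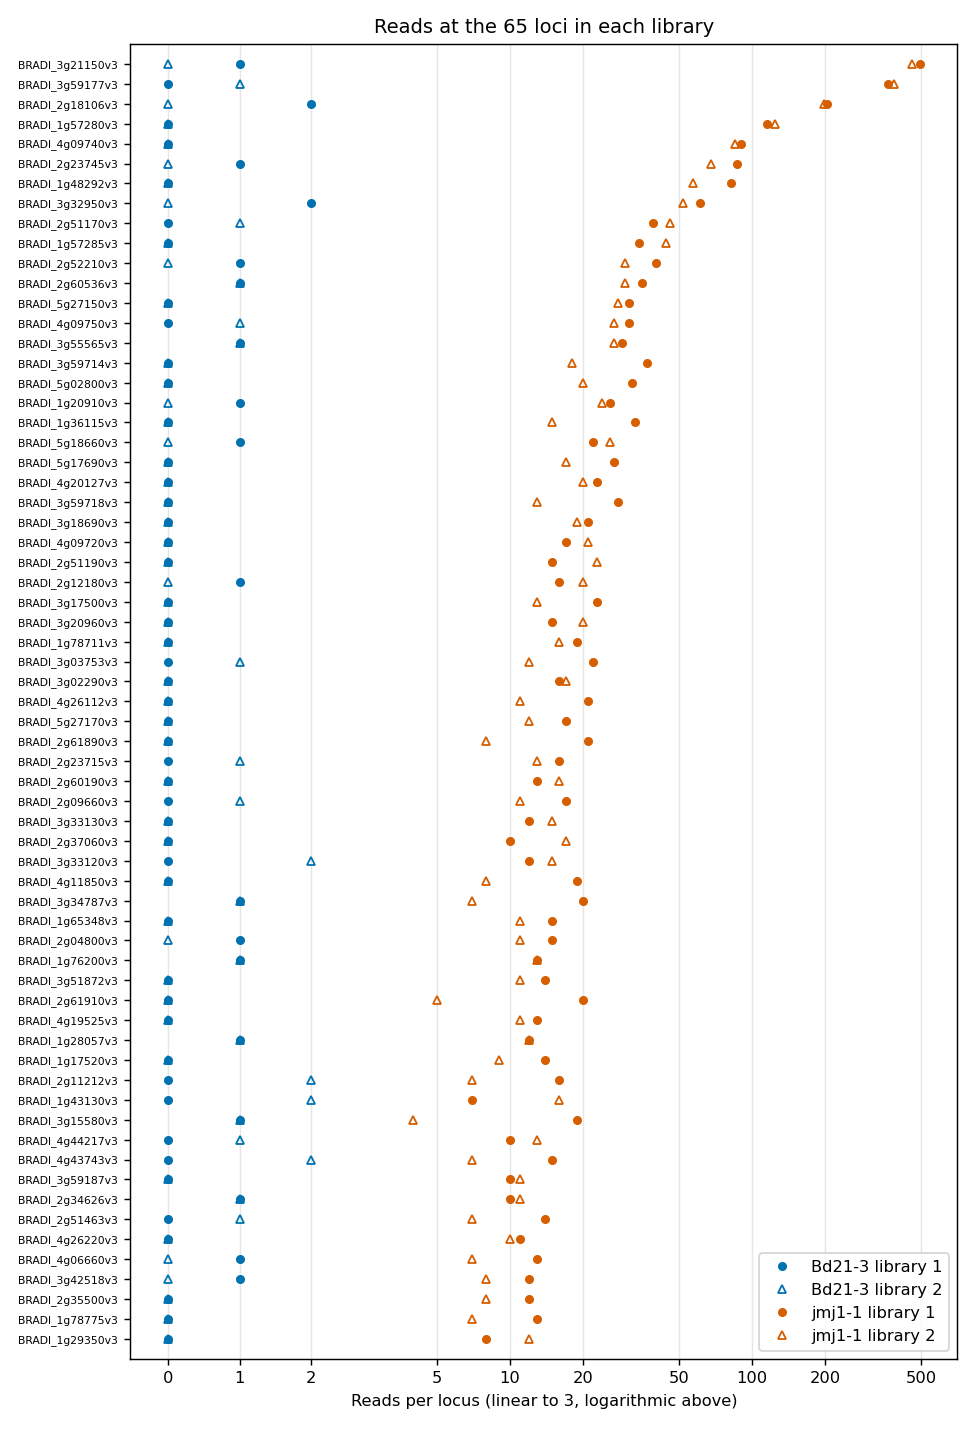
Reads at each of the 65 loci (rows, ordered by reads in jmj1-1) in the 2 Bd21-3 libraries (blue) and the 2 jmj1-1 libraries (orange); circles are library 1 and triangles library 2, on an axis that is linear to 3 reads and logarithmic above. Wild-type points lie at 0 to 2 reads and mutant points at 4 to 493 reads.

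Most of the signal came from a few loci. The 3 members with the most reads held 42.8% of all reads of the set in jmj1-1, and the 12 with the most held 65.6%. The median member had 32 reads over both mutant libraries, 32 members had 20 to 29 reads, 15 had 30 to 49, 10 had 50 to 99 and 8 had 100 or more. In CPM, the mean over the mutant libraries ran from 0.646 to 31.3 with a median of 1.03. The table used here gives no gene length, so these reads order the loci by signal and not by transcript level.

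BRADI_3g21150v3 had the most reads of the set, 493 and 458 in the mutant libraries against 1 and 0 in the wild type. BRADI_3g59177v3 followed with 0 and 1 reads in Bd21-3 and 364 and 386 in jmj1-1. BRADI_2g18106v3 had 2 and 0 reads in Bd21-3 and 203 and 199 in jmj1-1. At these 3 loci the mutant libraries were close to each other and at least 197 reads above the wild type. The mutant means were 31.3 ± 1.6, 24.8 ± 3.5 and 13.3 ± 1.2 CPM (SD, n = 2). With so few wild-type reads the ratio between genotypes is loosely known. After scaling it was 789 for BRADI_3g59177v3, with an exact 95% Clopper-Pearson interval of 141 to 31202, and 211 for BRADI_2g18106v3 (58.2 to 1752). These intervals cover counting error only.

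Among loci with no wild-type read, BRADI_1g57280v3 had 115 and 124 reads in the mutant libraries, BRADI_4g09740v3 had 90 and 85, and BRADI_1g48292v3 had 82 and 57. Against a floor of 3 reads over both Bd21-3 libraries, BRADI_4g09740v3 came out at least 61.4-fold higher and BRADI_1g48292v3 at least 48.7-fold higher in jmj1-1. This bound takes the mutant reads as exact and leaves out the spread between libraries. Over the 35 members without a wild-type read, this bound ran from 7.01-fold to 83.8-fold with a median of 11.6-fold, so for most of them depth supports only a modest lower limit. Over the 30 members with 1 or 2 wild-type reads, observed ratios ran from 11.04 to 1000, and the lowest end of an interval was 2.70. The read limits of the set fix how low these bounds, ratios and intervals can be. They describe the size of the signal and are not read as evidence of a difference.

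The other loci among the 12 with the most reads were BRADI_2g23745v3, with 1 and 0 reads in Bd21-3 and 87 and 68 in jmj1-1, and BRADI_3g32950v3, with 2 and 0 against 61 and 52. BRADI_2g51170v3 had 0 and 1 reads in Bd21-3 and 39 and 46 in jmj1-1, and BRADI_1g57285v3 had 0 in both Bd21-3 libraries and 34 and 44 in jmj1-1. BRADI_2g52210v3 had 1 and 0 against 40 and 30, and BRADI_2g60536v3 had 1 in each Bd21-3 library against 35 and 30. In each of these 6 loci the lower mutant library stood at least 29 reads above the higher wild-type library.

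The read limits cut through a continuous range rather than a gap. Just inside, 5 members had 20 reads in jmj1-1 (BRADI_1g29350v3, BRADI_1g78775v3, BRADI_2g35500v3, BRADI_3g42518v3 and BRADI_4g06660v3) and 4 had 21. Just outside, 6 loci had 18 and 3 had 19 mutant reads with at most 2 in Bd21-3. Another 12 loci were left out by a single wild-type read, with 3 reads in Bd21-3 and 20 or more in jmj1-1. BRADI_2g47700v3 was the largest of these, with 3 and 0 reads in Bd21-3 and 179 and 160 in jmj1-1, and BRADI_3g32940v3 followed with 1 and 2 against 78 and 96.

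Agreement between the mutant libraries was not part of the choice, which used only their sum. By depth, 53.6% of jmj1-1 reads were expected in library 1, and the members together had 52.8% there. The ratio between the libraries in CPM had a median of 1.35, 43 of 65 members were under 1.5-fold apart, and 6 were 2-fold or more apart. Of the 18 members with 50 or more reads, 17 were under 1.5-fold apart. The exception was BRADI_3g59714v3, with 37 and 18 reads, which was 1.78-fold higher in CPM in library 1.

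For 59 members the exact 95% interval of the share in library 1 held the share expected from depth, and for 6 it did not. These intervals too cover counting error only and allow nothing for the spread between libraries. BRADI_3g15580v3 had 19 and 4 reads (82.6% in library 1, with a lower interval end of 61.2%), the widest imbalance in the set at 4.11-fold. BRADI_2g61910v3 had 20 and 5 reads (80.0%, 59.3% to 93.2%), BRADI_3g34787v3 had 20 and 7 and BRADI_1g36115v3 had 33 and 15. BRADI_1g43130v3 leaned the other way with 7 and 16 reads, and so did BRADI_3g59177v3, where 750 reads make a small shift visible (48.5%, 44.9% to 52.2%). The 2 loci BRADI_2g61890v3 (21 and 8 reads) and BRADI_2g61910v3 lie close together and leaned to the same library.

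**Figure D2:**
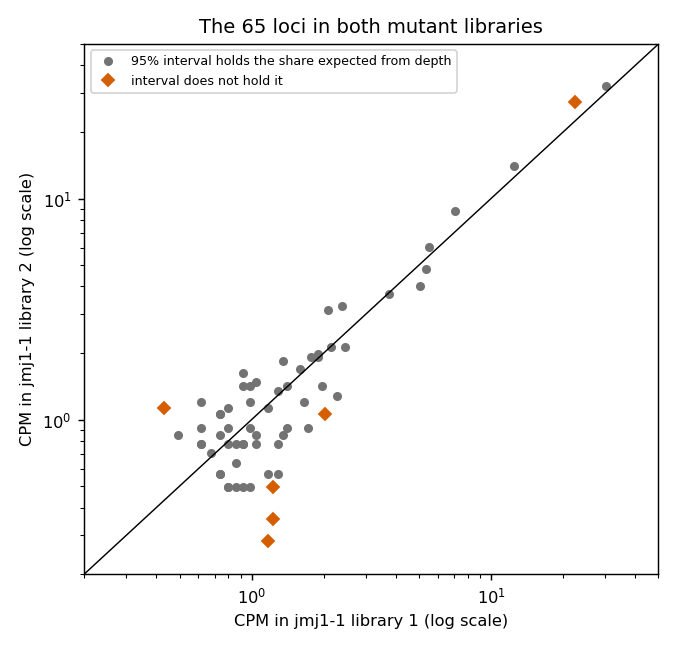
CPM of the 65 loci in jmj1-1 library 1 (horizontal, log scale) against library 2 (vertical, log scale), 1 point per locus, with the line of equality. Diamonds mark the 6 loci whose 95% interval for the share of reads in library 1 does not hold the 53.6% expected from depth; 17 of the 18 loci with 50 or more reads are under 1.5-fold from the line.

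The expression filter of edgeR kept 51 of the 65 members, and the other 14, with 20 to 29 mutant reads, were not tested. All 51 passed an adjusted p of 0.05 in edgeR's quasi-likelihood test, against 6.13% of 21456 tested genes that were higher in jmj1-1. Nothing is read from this count, since a locus that is silent in one genotype and passes the filter through the other had to differ.

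The opposite pattern was rarer at the same limits. With at most 2 reads over both jmj1-1 libraries and 20 or more over both Bd21-3 libraries, 8 loci were found, against 65 in the direction described here. With a minimum of 10 reads there were 153 loci silent in Bd21-3 and 49 silent in jmj1-1, with 40 reads 24 and 4, and with 100 reads 8 and 3. In total the Bd21-3 libraries held more reads than the jmj1-1 libraries, and counts at matched depth were not made. This is a comparison of counts of chosen loci and has no test. Of the 8 opposite loci, 2 had their reads in a single Bd21-3 library, BRADI_1g03486v3 with 0 and 33 and BRADI_3g27333v3 with 25 and 0. Among the 65 loci, 0 had a mutant library without a read.

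**Figure D3:**
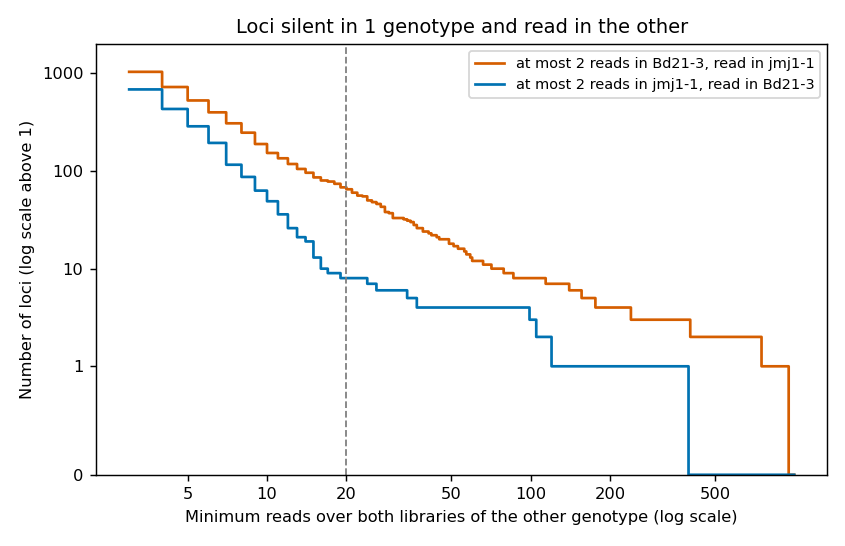
Number of loci (vertical, log scale above 1) with at most 2 reads in one genotype and at least the given number of reads in the other (horizontal, log scale), for loci silent in Bd21-3 (orange) and silent in jmj1-1 (blue). At the dashed line of 20 reads the curves stand at 65 and 8 loci, and the orange curve lies above the blue one at 5, 10, 40, 100 and 200 reads as well.

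Silence in the wild type was common and reading in the mutant was not. In Bd21-3, 9447 BRADI loci outside the left-out stretch had at most 2 reads. Of these, 6876 (72.8%) had no read in jmj1-1 either, and the median was 0 mutant reads. The 65 members are 0.688% of them. Most loci that were silent in wild-type leaves were thus also without reads in the mutant at this depth.

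The 65 loci lay on every chromosome, read from the digit before the g of the identifier. There were 13 on chromosome 1, 18 on chromosome 2, 18 on chromosome 3, 11 on chromosome 4 and 5 on chromosome 5. Per 1000 loci silent in Bd21-3, that is 4.93, 9.15, 9.06, 5.85 and 5.14 members. In the order of locus numbers the median gap between consecutive members was 246.5 loci, and the largest was 2292.

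**Figure D4:**
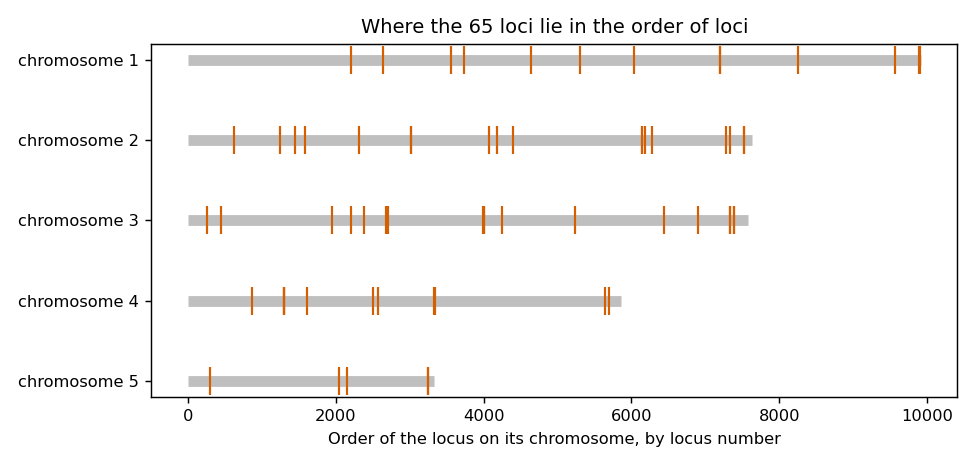
Place of the 65 loci (orange ticks) in the order of loci on chromosomes 1 to 5 (grey bars, as long as the number of loci on the chromosome). The ticks are spread over all 5 chromosomes, with 5 to 18 on each, and a few lie so close that they merge.

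In the last digit of their identifiers the members were near the share over all loci. Among the members, 28 of 65 (43.1%) had a locus number that does not end in 0, against 72.4% of the other 9379 chromosomal loci that were silent in Bd21-3, 44.7% of all chromosomal BRADI loci and 29.5% of those tested. In this respect the members were closer to the table as a whole than to the rest of the silent loci. Within the set, loci ending in 0 and the others had similar signal, with medians of 33 and 30.5 mutant reads.

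A minority of the members lay in small local groups. Within 3 loci of another member by locus number were 17 members, in 7 groups of 2 and 1 group of 3, and the other 48 had no member that near. How often other loci lie that near one another was not counted, so the grouping is not read as particular to the members. On chromosome 4, BRADI_4g09720v3 had 17 and 21 reads in jmj1-1, BRADI_4g09740v3 had 90 and 85, and BRADI_4g09750v3 had 31 and 27, with 1 read in Bd21-3 among the 3. On chromosome 3, BRADI_3g59714v3 had 37 and 18 reads and its neighbour BRADI_3g59718v3 had 28 and 13, so both leaned to the same library. BRADI_3g33120v3 and its neighbour BRADI_3g33130v3 each had 12 and 15 reads. BRADI_3g59177v3, with 750 reads, stood beside BRADI_3g59187v3 with 10 and 11. The other groups were BRADI_1g57280v3 with BRADI_1g57285v3, BRADI_2g51170v3 with BRADI_2g51190v3, BRADI_2g61890v3 with BRADI_2g61910v3, and BRADI_5g27150v3 with BRADI_5g27170v3. How reads were assigned by strand and how multiply mapped reads were counted is not stated in the labels, so whether neighbours share a transcript or close copies share reads was not tested.

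Loci next to the members did not have to be silent or read, although the set of neighbours leaves out other members and so depends in part on the same limits. There were 116 loci directly before or after a member, leaving out other members. In Bd21-3 46.6% of them had 1 CPM or more, against 58.2% of all chromosomal loci and 50.9% of the loci beside other silent loci. Of the 65 members, 15 lay between loci that both had 1 CPM or more in the wild type, 25 had such a locus on 1 side, and 25 on neither side.

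Of the 116 adjacent loci, 62 had enough reads to test, and 10 rose in jmj1-1 (16.1%), 3 fell (4.84%) and 49 did not pass an adjusted p of 0.05 in edgeR's quasi-likelihood test. Over all genes tested, 6.13% rose and 7.75% fell. Scaled by library totals alone, which shifts the median log2 change of all genes to 0.06, 11 adjacent loci rose and 2 fell, against 9.51% and 5.33% of all genes. By 2-fold or more, 8 adjacent loci (12.9%) were higher, against 1.46% of all genes tested and 1.38% of tested loci beside other silent loci. Of the 8, 5 had under 10 reads in both wild-type libraries and entered the test through jmj1-1 alone, so the filter itself favoured a difference there. Of these 5, 2 missed membership by a single wild-type read. Among loci with 10 or more reads in a Bd21-3 library, 5 of 57 adjacent loci (8.77%) rose, against 5.50% of all such genes. Rises of 2-fold or more numbered 3 (5.26%), against 0.769%, so this comparison rests on 3 loci. Mutant reads do not set this limit but can still help a locus past the expression filter, which kept 21199 of 21593 such genes. BRADI_3g33140v3, 1 of the 3 loci, lay near this limit. No test of the difference between these shares was made. The median log2 change of the tested adjacent loci was -0.02, against 0.00 over all genes.

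The 5 adjacent loci that were nearly silent in the wild type are described without a test. BRADI_5g27160v3, between the members BRADI_5g27150v3 (31 and 28 mutant reads) and BRADI_5g27170v3 (17 and 12), had 1 and 7 reads in Bd21-3 and 229 and 206 in jmj1-1, a log2 difference of 5.79, which was 7.68 without Bd21-3 replicate 2 and 4.99 without Bd21-3 replicate 1. BRADI_3g32940v3, beside BRADI_3g32950v3, had the reads given above and a log2 difference of 5.82, which was 5.41 without Bd21-3 replicate 1 and 6.36 without Bd21-3 replicate 2. BRADI_3g02300v3, beside BRADI_3g02290v3, had 9 and 2 reads in Bd21-3 and 91 and 63 in jmj1-1, a log2 difference of 3.85, which was 5.23 without Bd21-3 replicate 1 and 3.17 without Bd21-3 replicate 2. BRADI_4g09727v3, between the members BRADI_4g09720v3 and BRADI_4g09740v3, had 0 and 3 reads in Bd21-3 and 20 and 22 in jmj1-1, a log2 difference of 3.77. It was 2.81 without Bd21-3 replicate 1, and without replicate 2 no wild-type read was left, so the fitted value of 7.43 is no bound. BRADI_4g44219v3, beside BRADI_4g44217v3, had 4 and 5 reads in Bd21-3 and 39 and 32 in jmj1-1, a log2 difference of 3.02. At these 5 loci each mutant library lay above each wild-type library.

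The other 3 adjacent loci that rose by 2-fold or more had more wild-type reads, although BRADI_3g33140v3 was still weakly read, with 11 and 9. BRADI_5g02810v3, beside BRADI_5g02800v3, went from 30 and 24 to 142 and 111 reads, a log2 change of 2.30 (SE 0.23, adjusted p = 2.43e-12 in edgeR's quasi-likelihood test). BRADI_4g20117v3, beside BRADI_4g20127v3, went from 42 and 46 to 112 and 130 reads (log2 change 1.53, SE 0.21, adjusted p = 4.52e-08). BRADI_3g33140v3, beside BRADI_3g33130v3, went from 11 and 9 to 25 and 43 reads (log2 change 1.83, SE 0.41, adjusted p = 6.15e-04). Its call was lost without jmj1-1 replicate 2 (log2 change 1.29, adjusted p = 0.12, the highest over its alternatives, against a lowest of 4.83e-05).

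Smaller changes beside members went both ways. BRADI_2g18101v3, next to BRADI_2g18106v3 with its 402 mutant reads, rose only by 0.57 on the log2 scale (SE 0.16), from 92 and 111 to 150 and 137 reads. BRADI_2g11210v3 rose by 0.30 (SE 0.059). BRADI_3g55560v3, beside the member BRADI_3g55565v3 (29 and 27 mutant reads), fell by 0.48 on the log2 scale (SE 0.041), from 6475 and 6217 to 4542 and 4093 reads, so a locus next to a silent one was strongly read in the wild type and lower in the mutant. BRADI_1g78713v3 and BRADI_5g18647v3 fell by 0.29 and 0.28 on the log2 scale.

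Farther from the members, among tested loci, 17.2% rose at a distance of 2 loci, 6.06% at 3, 8.70% at 4 and 9.72% at 5, against 16.1% at 1 locus. These shares include loci that entered the test through jmj1-1 alone, and 6.13% of all genes tested rose. With 10 or more reads in a Bd21-3 library, 5 of 57 rose at 1 locus and 9 of 62 at 2. At 3, 4 and 5 loci it was 3 of 64, 5 of 67 and 7 of 71, against 5.50% of all such genes. Rises of 2-fold or more among loci with 10 or more reads in a Bd21-3 library numbered 3 of 57 at a distance of 1 locus. They were 2 of 62 at 2, 1 of 64 at 3, 2 of 67 at 4 and 2 of 71 at 5, which shows no clear trend with distance. Over all such genes 0.769% rose by 2-fold or more. Each count by distance rests on 1 to 3 loci, and BRADI_5g02831v3 and BRADI_5g27220v3, named below, are among them. Outside the immediate neighbours, loci were chosen for naming after their values were seen. On chromosome 5, BRADI_5g02800v3 (32 and 20 mutant reads) was followed by BRADI_5g02810v3, by BRADI_5g02815v3 without a read, and by 3 loci that were higher. BRADI_5g02820v3 had a log2 change of 1.37 (SE 0.45), and BRADI_5g02831v3 had 2.47 (SE 0.15, from 51 and 57 to 313 and 259 reads). BRADI_5g02830v3, between them, went from 2 and 4 to 25 and 24 reads, a log2 difference of 3.05. It entered the test through jmj1-1 alone and is described without a test. The 5 loci before BRADI_5g02800v3 had 1 read in all. Beyond BRADI_5g27170v3, 3 loci without a read were followed by BRADI_5g27210v3 (log2 change 1.22, SE 0.20) and BRADI_5g27220v3 (1.52, SE 0.078, from 314 and 375 to 1016 and 866 reads).

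**Figure D5:**
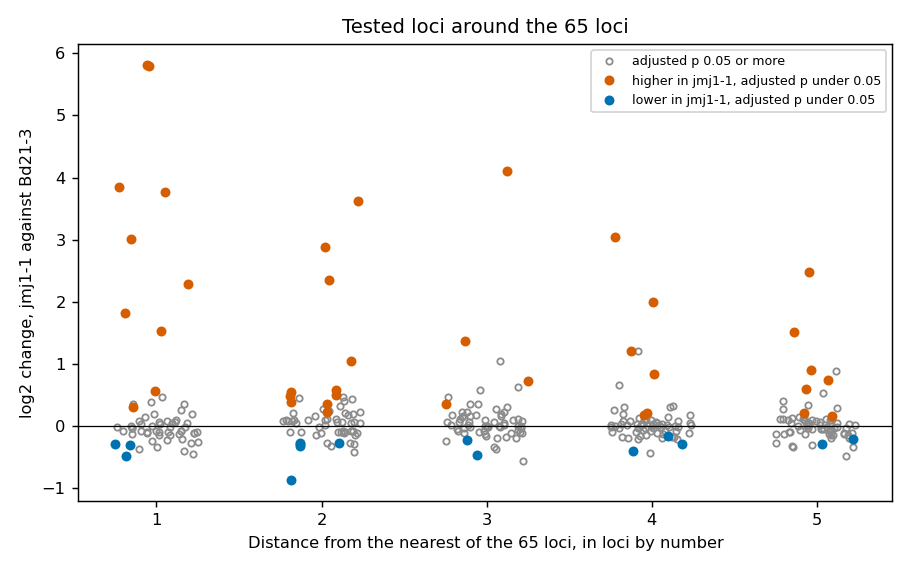
log2 change between jmj1-1 and Bd21-3 (vertical) of each tested locus within 5 loci of a member, by distance from the nearest member in loci (horizontal, points spread sideways for sight). Filled points passed an adjusted p of 0.05 in edgeR's quasi-likelihood test, orange when higher and blue when lower in jmj1-1. Most points lie near 0 at every distance, and the 2 points near 5.8 are at a distance of 1 locus. Some filled points, the 2 near 5.8 among them, are loci that entered the test through jmj1-1 alone, and nothing is read from their passing.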

How the data were processed

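mRNA-seq read counts of 4 leaf libraries were used, 2 of Bd21-3 and 2 of jmj1-1, grouped by their titles. The authors deposited raw counts per gene in 1 column per library, per the file header. Per the submitters' processing notes, cutadapt, HISAT2, SAMtools and featureCounts were used; versions, genome build, annotation, strand setting and the handling of multiply mapped reads are not stated there. Members were found on these counts by the read limits stated in the text. Members, lists and tests were chosen with earlier results of these data known.

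All 35125 rows entered the fit in R 4.3.3 with edgeR 4.0.16 (filterByExpr, TMM, quasi-likelihood F-test, two-sided, Benjamini-Hochberg over 21456 genes, threshold 0.05). CPM used TMM-scaled library sizes. Standard errors are the absolute log2 change divided by the square root of F. Adjacent loci were ordered by locus number. Naming took the 12 members with the most reads, local groups, loci near the limits, and adjacent loci called at 2-fold or more. The RefSeq gene table held no BRADI identifier, so no sequence or position is given. Total counts, 13825916 to 16520046 per library, set the precision. Alternatives were other scalings, no filter, DESeq2 1.42.0, a replicate block, left-out libraries and other read limits.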

Additional observations from a re-analysis of the deposited data

How the results depend on the processing

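The number of members follows the limits by construction. It was 35 with no wild-type read allowed, 102 with up to 5, 153 with 10 or more mutant reads and 24 with 40 or more. With limits on TMM-scaled reads it was 65, and all 65 members were kept. Leaving out 1 library under unchanged limits gave 23 to 117 loci, since the limits then apply to fewer reads: 117 and 109 without Bd21-3 replicate 1 and 2, and 23 and 30 without jmj1-1 replicate 1 and 2. Over all genes, calls numbered 1788 without the expression filter (746 higher, 1042 lower) and 1283 in DESeq2 (515 higher, 768 lower); library totals alone gave 2041 higher, 64.1% of the calls against 44.2% with TMM. With any single library left out, calls ran from 1792 to 2856, higher genes from 749 to 1236 and lower genes from 1042 to 1620, with fewer samples in the fit, and were fewest without jmj1-1 replicate 1 (1792) or 2 (1969). Within 3 loci in place of 1, 35 loci were called, 25 higher and 10 lower, since more loci were counted. Adjacent loci called lower numbered 1 without the filter and 1 in DESeq2, and 1 to 4 with a library left out; the cause was not tested. Adjacent loci called higher numbered 8 to 11 with a library left out. Of 80 values of the 8 adjacent loci named for 2-fold rises, 79 kept direction and call, and the exception, BRADI_3g33140v3, is given with its values above. For 5 of the 8 loci, which entered the test through jmj1-1 alone, nothing is read from a kept call. The older quasi-likelihood method and the limit of 10 reads in a Bd21-3 library were chosen after seeing the data; the first gave 13 adjacent calls (10 higher) and the second 8 (5 higher), since loci read in jmj1-1 alone are left out. The replicate block gave 3140 calls in all and 13 among adjacent loci; deviations of same-numbered libraries correlated at -0.018 across genes and nothing in the labels pairs them. With 20 to 29 reads, 32 members are too sparse for more than a presence in the mutant.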

Other observations

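Loci on the 2 sides of a member differed in a way that was noticed after the values were seen and was not tested. Among tested loci within 5 loci at higher locus numbers, 15 of 173 (8.67%) rose by 2-fold or more, beside 11 members. At lower locus numbers it was 2 of 154 (1.30%), beside 2 members, close to the 1.46% of all genes tested. Among loci with 10 or more reads in a Bd21-3 library it was 9 of 166 and 1 of 151. Loci lying between members on both sides were counted apart, with 2 of 6. Both of these entered the test through jmj1-1 alone, and with 10 or more reads in a Bd21-3 library it was 0 of 4. Locus numbers give order along a chromosome and not the strand of a gene, and several of these loci lie in the same stretch on chromosome 5. Among the 815 ENSRNA non-coding loci, 0 met the read limits of the set.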
